A study of Mus musculus with 222 samples.

Results

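The libraries described here are 8 of the 222 samples of a study of primordial germ cells (PGCs), from which sperm and eggs descend, in mouse embryos that lack EED. They were chosen by label, as all bulk RNA-seq libraries of XY germ cells at stage E11.5, and fall into 4 Control and 4 ECKO libraries. Embryos came from mothers carrying OG, an Oct4-GFP reporter, and Eed fl/fl, mated to fathers carrying BC, a Cre driven by sequences of Prdm1 (Blimp1), and Eed fl/+, on a C57BL/6;129S1/SvlmJ background. ECKO is labelled Eed -/- and Control is labelled wild type, although by this cross every embryo of either group inherits a floxed Eed allele from its mother, and the labels do not say which Controls carry the Cre. Gonads were digested with trypsin and GFP-positive cells were sorted, so every library in both groups holds cells with the Oct4-GFP reporter. The question is which genes respond to the deletion in XY germ cells when the gonad begins to form a testis.

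EED is the subunit of Polycomb repressive complex 2 (PRC2) that binds trimethylated lysine 27 of histone H3 and holds the complex active, so that the methyltransferases EZH1 and EZH2 can spread the mark. Genes under this mark are kept silent, and in many cell types they are regulators of other lineages, such as the Hox cluster genes, together with genes of signalling and adhesion. PGCs reach the gonad at about this stage, lose most of their DNA methylation, and then enter either the male pathway, with mitotic arrest, or the female one, with meiosis started by Stra8 in response to retinoic acid.

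Depth was 8607927 to 14974853 counts per library, with 14629 to 16218 of 24391 gene symbols counted, and the 45S ribosomal precursor Rn45s took 10.1% to 22.5% of the counts. The germ cell label was borne out by its markers: the 14 germ cell genes checked, among them Pou5f1, Dppa3, Ddx4 and Prdm1, summed to 3797 to 5235 CPM (counts of a gene relative to the library total, scaled to a common total) in Controls and to 3431 to 4415 in ECKO. Markers of other gonadal cells were far lower but present in every library, and 3 libraries stood apart. ECKO 4 had 758 CPM of 20 interstitial and stromal markers, against 125 to 173 CPM in the other ECKO libraries and 85.2 to 248 in Controls, and its endothelial sum of 517 CPM was also the highest. Control 1 had 339 CPM of blood and macrophage markers, against 9.55 to 15.6 in the other Controls and 15.5 to 147 in ECKO. In Control 1 these were mostly the embryonic globin genes Hbb-y (180 CPM) and Hba-x (135). ECKO 2 stood apart for macrophage genes: 8 of them summed to 137 CPM there and to 2.87 to 12.1 in the other 7 libraries, with the receptor gene Csf1r at 40.7 CPM in ECKO 2. The 22 supporting cell markers summed to 143 to 153 CPM in Controls and 145 to 187 in ECKO, with overlap. Aard and Cbx2 made up most of this sum in every library except ECKO 4. The other 20, a split made after the values were seen, summed to 23.99, 15.8, 14.2 and 21.996 CPM in Controls and 32.7, 70.5, 48.4 and 105 in ECKO. The 2 groups were thus wholly apart in this sum, with or without ECKO 4. Of the 12 supporting cell markers that passed the filter on low counts 10 were higher in ECKO, and edgeR called none of the 10. The median log2 fold change of the 12 was 1.24, and 0.69 without ECKO 4. A marker silent in Controls passes this filter only through ECKO, so this count and median are no support. DESeq2 called 4 of the supporting cell list and limma voom 1. The 12 mesonephric and duct markers summed to 227 to 452 CPM, and to 17.2 to 72.1 in Controls and 56.8 to 121 in ECKO without Epcam, which PGCs also make. The globin genes Hba-a1 and Hba-a2 and the kidney cadherin gene Cdh16 had no count in any of the 8 libraries. On the first principal component of log-scaled levels, which held 32.5% of the variance, Controls ran from -71.7 to -5.24 and ECKO from 18.0 to 93.0, with Control 1 the Control nearest to ECKO and ECKO 4 the farthest out. The part of other cells in the results below was not tested. Most list medians, and the genes described in most detail, are given with and without ECKO 4.

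**Figure D1:**
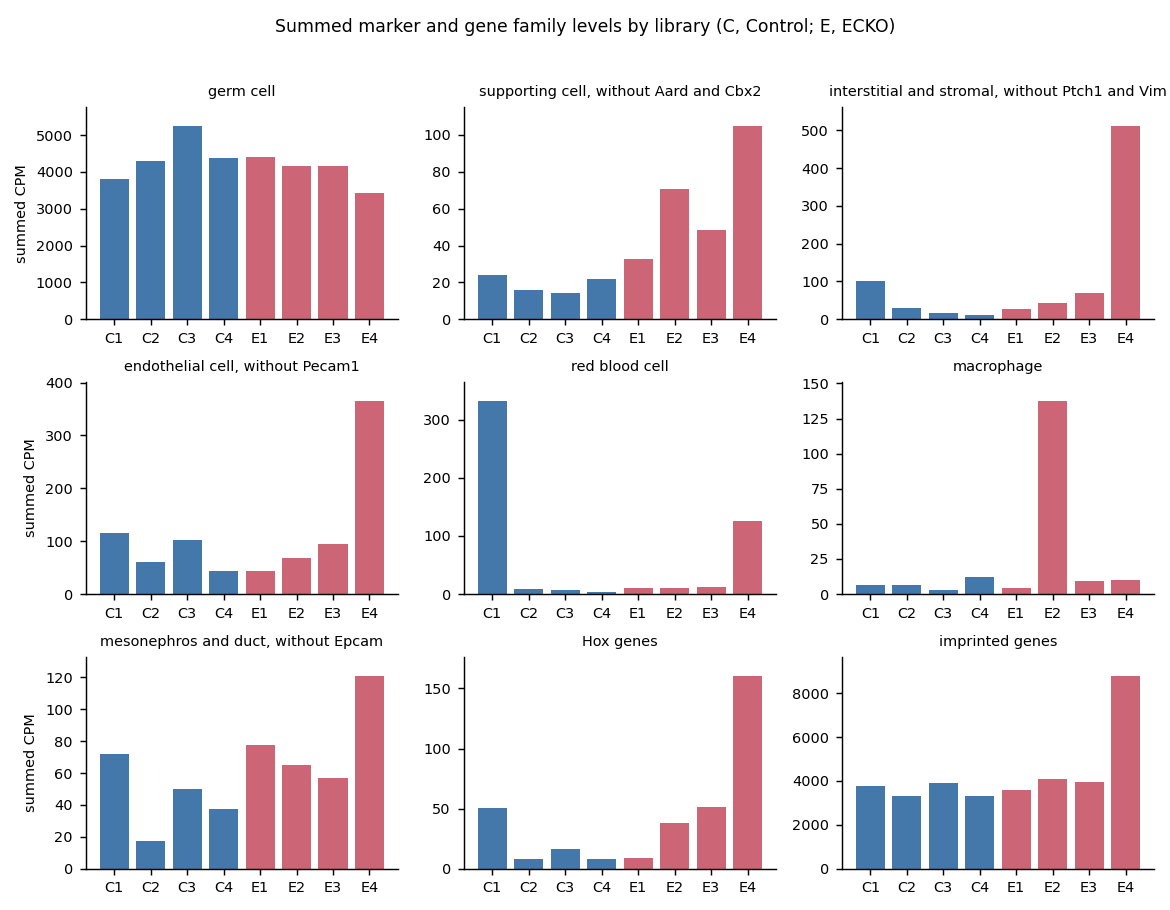
Bars give the summed CPM (linear axes from 0) of each marker list or gene family in every library, with Controls in blue and ECKO in red, and with the genes named in a panel's title left out. ECKO 4 stands apart for interstitial and stromal markers (510 CPM), Hox genes (161) and imprinted genes (8788), Control 1 for red blood cell markers (332) and ECKO 2 for macrophage markers (137). All ECKO bars exceed the Controls for supporting cell markers without Aard and Cbx2, which does not hold for the full list.

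Eed, which the cross deletes, had less RNA in all ECKO libraries than in any Control, and edgeR called no other core subunit of PRC2. Of the 6 core subunits DESeq2 called 2 and limma voom 1, and the median log2 fold change was -0.33, and -0.28 without ECKO 4. In this and every later sentence that gives a value for each library, the 4 Control values and then the 4 ECKO values are in the order of the replicate numbers, and are CPM after scaling by TMM, a correction for composition. Eed measured 81.2, 113, 145 and 90.6 CPM in Controls and 16.6, 35.4, 38.8 and 49.6 in ECKO, with ECKO 4 the highest of the ECKO libraries. For Eed the log2 fold change was -1.62 (SE 0.29, adjusted p = 0.0118), and -1.82 (SE 0.29, adjusted p = 0.0056) without ECKO 4. All adjusted p-values are from edgeR's quasi-likelihood test across all genes tested, with Benjamini-Hochberg adjustment, and a gene is said to have risen or fallen only at an adjusted p under 0.05. A value that stands after a gene with its standard error (SE) or alone in parentheses is the log2 fold change of ECKO over Control. A call or gene is described as lost without a library where the fit that leaves out that library gave an adjusted p of 0.05 or more. Because the counts cover the whole gene and the cells are pooled, fewer cells that still carry an intact allele and less Eed RNA per cell cannot be told apart. Suz12, the subunit that holds the core together, measured 216, 219, 287 and 254 CPM and 128, 174, 174 and 163, without overlap, and missed the threshold with -0.61 (SE 0.16, adjusted p = 0.0528). Ezh2, the main methyltransferase, was at -0.39 (SE 0.17, adjusted p = 0.284) on the log2 scale, and Ezh1, Rbbp4 and Rbbp7 had 0.26, -0.28 and -0.01. None of the 5 accessory subunits tested was called by edgeR, DESeq2 or limma voom, though 2 had an unadjusted p under 0.05. Of 21 PRC1 subunits, which bind the mark or ubiquitinate H2A, edgeR called Bmi1 higher, and DESeq2 called 2: Bmi1 measured 4.901, 14.6, 10.3 and 10.6 CPM and 17.5, 41.7, 29.8 and 35.1. For Bmi1 the log2 fold change was 1.62 (SE 0.40, adjusted p = 0.0452), and 1.56 (SE 0.43, adjusted p = 0.0855) without ECKO 4. The call was lost without Control 1, 2, 3 or 4 or ECKO 2, 3 or 4 (adjusted p up to 0.143). Of 8 histone demethylases and methyltransferases that oppose PRC2 none was called by edgeR, with 2 at an unadjusted p under 0.05, while DESeq2 and limma voom called 1 each.

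In all, 266 of 12497 genes tested were called (2.13%), 189 higher (1.51%) and 77 lower (0.616%) in ECKO, and 2007 had an unadjusted p under 0.05. The genes that rose were mostly low in Controls, with a median Control level of 7.30 CPM against 24.9 for all genes tested, and 79 of them averaged under 5 CPM there. Those that fell were well expressed, with a median of 120 CPM in Controls. Changes were also larger upward than downward, with a median log2 fold change of 2.22 among the genes that rose and -0.96 among those that fell, while all genes tested had a median of 0.0016. These medians describe genes selected for passing the test. Separation of the groups went with the calls: 182 of the 189 and all 77 had no overlap between the 4 Control and the 4 ECKO values, whereas over all genes tested 5.15% lay wholly above and 4.65% wholly below the Controls. Calls and overlap were read from the same values, so the separation is no further support for the calls.

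ECKO 4 was the highest of the 4 ECKO libraries in 90 of the 189 higher genes, against 36, 24 and 39 for ECKO 1, 2 and 3. Without it 124 genes (0.961%) were higher and 38 (0.294%) lower among 12907 tested. Of the 189 genes that rose with all libraries 108 were still called and of the 77 that fell 34, and every one of the 266 kept its direction. The median log2 fold changes of the same genes were 2.10 and -0.93 without ECKO 4. Another 20 genes were called only without ECKO 4, among them the caudal homeobox gene Cdx2, the fibronectin gene Fn1, the class I histocompatibility gene H2-K1 and the meiotic cohesin gene Stag3. Other libraries carried as much weight: 46 genes rose and 18 fell without Control 2, 95 and 30 without Control 3, 49 and 16 without Control 4, 98 and 32 without ECKO 2, and 137 and 41 without ECKO 3. Leaving out Control 1 gave 261 and 72, and ECKO 1 185 and 60. The labels do not say whether the libraries came from separate embryos, so the p-values measure only the spread between these libraries.

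**Figure D2:**
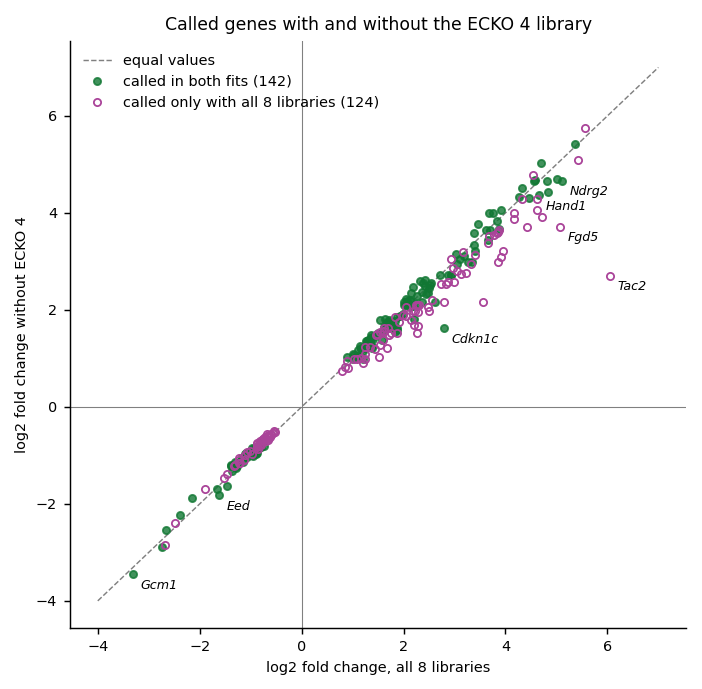
Each point is 1 of the 266 called genes, with its log2 fold change from all 8 libraries on the x axis and without ECKO 4 on the y axis. Tac2, Cxcl12, Fgd5 and Cdkn1c lie farthest below the line of equal values, and 142 genes (filled) were called in both fits.

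A core of 36 genes that rose and 12 that fell was called in every one of the 8 fits with 1 library left out. The 36 were Aff1, Amotl1, Bend4, Ccng1, Cdkn1a, Celsr1, Ckap4, Dab2ip, Dpysl5, Egr1, Fos, Galk1, Hand1, Hspa4l, Hspg2, Itga6, Kif21b, Ldha, Met, Mt1, Mt2, Myc, Myl7, Ndrg2, Nrp2, Pla2g16, Pmaip1, Prtg, Ptprf, Robo1, Rufy3, Serpine2, Sfmbt2, Steap2, Uchl1 and Vopp1. The 12 were AU018091, BC048679, Ddx58, Eed, Enpp3, Gca, Gnai1, Hmgn5, Isl2, Pfkp, Ptpn9 and Tdh. Those that belong to a list of genes of known function are described with it below. Beside the edgeR counts of every list stand the shares over all genes tested, 1.51% higher and 0.616% lower. Without ECKO 4 these shares were 0.961% and 0.294%. For every list above and below, the counts at an unadjusted p under 0.05 stand beside 2007 of all 12497 genes tested. Counts by limma voom stand beside its 355 calls among the same genes. Those by DESeq2, run on all genes with a count, stand beside its 1031 calls. No list was tested as a set.

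**Figure D3:**
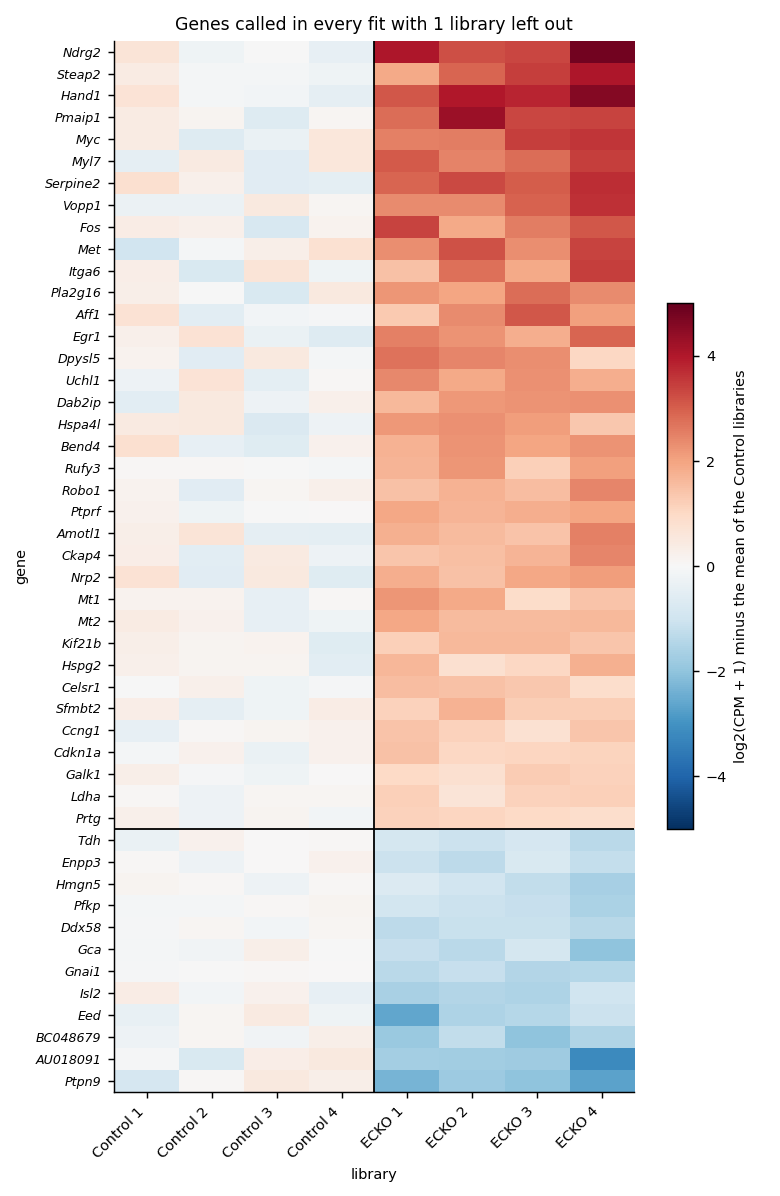
Each row is a gene called in all 8 fits with 1 library left out, each column a library, and colour gives log2(CPM + 1) minus the mean of the Controls, from blue (lower) to red (higher). The 36 genes above the line are higher in all 4 ECKO libraries, with the strongest colours for Hand1, Ndrg2, Pmaip1 and Serpine2, and the 12 below it are lower.

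Retinoic acid, made from vitamin A, acts through nuclear receptors that bind pairs of short half-sites near their target genes. Of 20 tested genes of its synthesis, reception and response 4 rose and none fell: Aldh1a2, Crabp1, Rarb and Stra8, and 2 of them (Crabp1 and Stra8) were called without ECKO 4. The median log2 fold change of the list was 1.46, and 0.95 without ECKO 4. In RefSeq's promoter windows 144 of the 189 genes that rose and 58 of the 77 that fell were matched by symbol, and all 4 of these genes had a window. The 250 bases before the start of Rarb, the best known direct target of retinoic acid, and of Stra8 are printed because both carry half-sites of the kind that retinoic acid receptors bind (AGGTCA, the variant AGTTCA, the variant GGGTCA or the variant GGTTCA, on either strand). Capitals mark, in Rarb, a pair of half-sites in the same direction 5 bases apart and, in Stra8, each half-site, and sequences run 5′ to 3′ on the strand of the gene.
Rarb, GRCm38.p6 chr14:16575477-16575726, minus strand: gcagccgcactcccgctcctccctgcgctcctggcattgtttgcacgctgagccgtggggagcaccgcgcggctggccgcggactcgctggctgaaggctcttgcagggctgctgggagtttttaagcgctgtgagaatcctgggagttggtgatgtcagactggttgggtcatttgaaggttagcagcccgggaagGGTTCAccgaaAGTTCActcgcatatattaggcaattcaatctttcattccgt
Stra8, GRCm38.p6 chr6:34920698-34920947, plus strand: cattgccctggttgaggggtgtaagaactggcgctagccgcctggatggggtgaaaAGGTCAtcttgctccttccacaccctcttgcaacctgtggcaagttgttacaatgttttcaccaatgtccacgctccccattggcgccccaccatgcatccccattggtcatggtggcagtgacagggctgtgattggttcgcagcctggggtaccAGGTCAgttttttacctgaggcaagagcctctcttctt
Such a spaced pair is in 0.0883% of the 32851 windows of this length in the table and ends 36 bases before the start of Rarb. A single half-site is in 38.6% of them, so that the 2 in Stra8 are common by themselves, and a match is a description of letters and not of binding. The windows of Aldh1a2 and Crabp1 held no half-site.

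Aldh1a2, which makes retinoic acid from retinal, measured 14.2, 3.28, 6.397 and 2.45 CPM in Controls and 40.2, 17.8, 19.5 and 42.05 in ECKO. All ECKO values were above the highest Control, Control 1, but the lowest exceeded it by little. For Aldh1a2 the log2 fold change was 2.18 (SE 0.53, adjusted p = 0.0427), 1.98 (SE 0.56, adjusted p = 0.0899) without ECKO 4, and the call was lost without Control 2, 3 or 4 or ECKO 1, 2, 3 or 4 (adjusted p up to 0.127). Crabp1, which binds retinoic acid in the cytosol, measured 35.9, 32.8, 18.9 and 35.8 CPM and 145, 49.8, 75.7 and 105, with ECKO 1 the highest and ECKO 2 the lowest of the ECKO libraries and no overlap. For Crabp1 the log2 fold change was 1.61 (SE 0.31, adjusted p = 0.0147) and 1.55 (SE 0.32, adjusted p = 0.0295) without ECKO 4, and the call was lost without Control 2 (adjusted p = 0.0516).

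Rarb, a retinoic acid receptor gene whose promoter is shown above, measured 2.94, 2.49, 0.517 and 0.952 CPM and 6.76, 13.3, 22.7 and 9.56. Every ECKO library was above every Control and ECKO 3 was the highest. For Rarb the log2 fold change was 2.93 (SE 0.72, adjusted p = 0.0427) and, without ECKO 4, 3.06 (SE 0.74, adjusted p = 0.0503), on the other side of the threshold at almost the same size, and the call was lost without Control 2, 3 or 4 or ECKO 2, 3 or 4 (adjusted p up to 0.132). Stra8, the gatekeeper of meiosis, went from 0.9803, 0.3398, 0.194 and 0.06802 CPM to 6.68, 15.98, 6.85 and 14.9, that is from under 1 CPM in all Controls to above 6 in all ECKO libraries. For Stra8 the log2 fold change was 4.82 (SE 0.89, adjusted p = 0.0127) and 4.65 (SE 0.97, adjusted p = 0.0295) without ECKO 4, and the call was lost without Control 2 (adjusted p = 0.0516). Of the genes not called, Crabp2 (2.20, SE 0.66, adjusted p = 0.0972) and the receptor genes Rxra (1.74, SE 0.48, adjusted p = 0.0727), Rara (0.39) and Rarg (0.39) had positive values, and Rxrb was at -0.01.

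Of 31 genes of meiosis edgeR called 1, Stra8, while DESeq2 called 5 and limma voom 3. Without ECKO 4 Stra8 rose and Stag3 fell. The list median was 0.20, and 0.21 without ECKO 4. Sycp3, a synaptonemal complex gene, measured 15.9, 12.3, 3.04 and 9.79 CPM and 11.8, 34.5, 3.81 and 14.02, with overlapping groups (0.65, SE 0.61, adjusted p = 0.661). Among 17 genes that defend the germline genome, Tdrd1, which assembles piRNA proteins, rose: 21.8, 5.78, 4.07 and 13.9 CPM in Controls and 55.96, 61.9, 47.7 and 52.8 in ECKO, where the 4 libraries were close together. The log2 fold change was 2.26 (SE 0.42, adjusted p = 0.0127) and 2.28 (SE 0.44, adjusted p = 0.0193) without ECKO 4, and it was lost without Control 2 (adjusted p = 0.0516). The promoter of Tdrd1 is shown because E-boxes of this kind (CACGTG, the same on both strands, in capitals) are bound by the MGA and MAX complex that keeps germline genes silent in other cells, as background.
Tdrd1, GRCm38.p6 chr19:56825959-56826208, plus strand: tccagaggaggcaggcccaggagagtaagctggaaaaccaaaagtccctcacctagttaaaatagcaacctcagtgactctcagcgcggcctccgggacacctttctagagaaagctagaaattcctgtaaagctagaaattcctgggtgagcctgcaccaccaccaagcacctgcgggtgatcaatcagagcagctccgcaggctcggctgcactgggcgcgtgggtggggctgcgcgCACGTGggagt
The E-box ends 5 bases before this start. Tdrd1 has 3 windows in the table, with 2 E-box matches in all, and the one printed was chosen as the first that holds an E-box. Of the 32851 windows 6.02% hold one. Mael (1.22, SE 0.37, adjusted p = 0.102) and Asz1 (0.82, SE 0.33, adjusted p = 0.222), of the same pathway, did not pass. In the male germ cell differentiation list 4 of 23 rose, Tdrd1, the semaphorin receptor gene Nrp2 and the D-type cyclin genes Ccnd1 and Ccnd2, and the median was 0.48 (0.64 without ECKO 4).

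**Figure D4:**
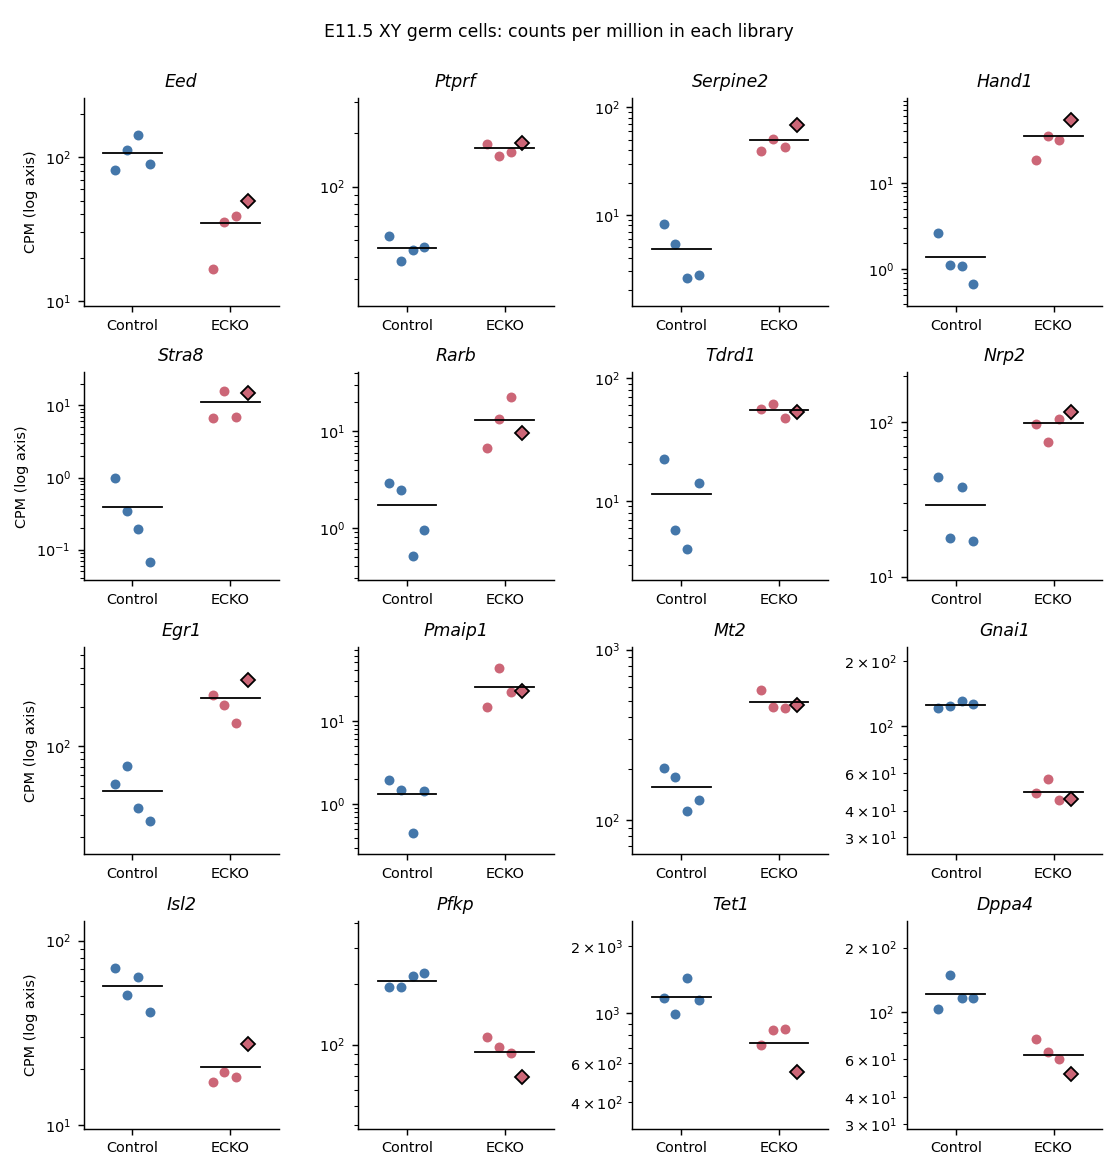
Each point is a library (Control blue, ECKO red, ECKO 4 a diamond), on log axes of CPM that differ between genes, and each line is the group mean. In all 16 genes the ECKO values lie wholly on 1 side of the Controls, above them for 10 genes and below them for Eed, Gnai1, Isl2, Pfkp, Tet1 and Dppa4.

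Transcription factor genes of other lineages are the classic targets of PRC2. Of 150 developmental transcription factor genes 63 passed the filter on low counts, and of these 1 rose (Hand1) and 3 fell (Isl2, Six4 and Tbx4) by edgeR, which called 2.13% of all genes tested. DESeq2 called 23 of the list, of 1031 calls in all, and limma voom 5, of 355. Of the 63, 25 had an unadjusted p under 0.05, as did 2007 of all 12497 genes tested. Without ECKO 4, of 66 that passed the filter Hand1 and Cdx2 rose and Isl2 and Tbx4 fell. The median log2 fold change of the 63 was 1.48, and 1.03 without ECKO 4. But a gene that is silent in Controls passes the filter only if it is expressed in ECKO. Neither this median nor the counts among the 63 are therefore support, and the same limit holds for other lists that lost genes to the filter. Hand1, which acts in heart and trophoblast, measured 2.65, 1.13, 1.099 and 0.6802 CPM and 18.5, 35.2, 31.2 and 53.6. Each ECKO library was several times above the highest Control, with ECKO 4 the highest and ECKO 1 the lowest. For Hand1 the log2 fold change was 4.65 (SE 0.52, adjusted p = 0.000431) and 4.36 (SE 0.55, adjusted p = 0.00117) without ECKO 4, and Hand1 was called in all 8 fits with a library left out.

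The factors that fell were all well expressed in Controls. Isl2, a LIM homeobox gene best known in motor neurons, measured 71.1, 50.5, 63.7 and 41.2 CPM and 17.2, 19.5, 18.3 and 27.6. For Isl2 the log2 fold change was -1.46 (SE 0.27, adjusted p = 0.0127) and -1.62 (SE 0.28, adjusted p = 0.00906) without ECKO 4. Tbx4, a T-box gene of hindlimb and allantois, measured 117, 129, 96.8 and 138 CPM and 62.00, 62.05, 58.97 and 40.98. It had -1.10 (SE 0.20, adjusted p = 0.0118) and, without ECKO 4, -0.98 (SE 0.20, adjusted p = 0.0236), and was not called without Control 4 (adjusted p = 0.0592). The Control and ECKO values of both genes were wholly apart. Six4, a homeobox gene, had -1.01 (SE 0.22, adjusted p = 0.0281) and lost its call without Control 2, 3 or 4 or ECKO 3 or 4 (adjusted p up to 0.0878). Gcm1, the placental factor of syncytiotrophoblast, had the largest fall of all genes named here: it varied widely among Controls, at 18.4, 6.23, 42.6 and 3.26 CPM, and was low in every ECKO library, at 1.53, 2.18, 1.08 and 2.34. For Gcm1 the log2 fold change was -3.30 (SE 0.75, adjusted p = 0.0317) and -3.45 (SE 0.80, adjusted p = 0.044) without ECKO 4, and its call was lost without Control 3 or ECKO 1, 2 or 3 (adjusted p up to 0.186). In the list of 12 trophoblast factors Hand1 thus rose and Gcm1 fell, and the median was 0.98, and 1.12 without ECKO 4. Cdx2 measured 6.67, 5.55, 2.84 and 2.99 CPM and 24.8, 10.6, 40.3 and 6.69, without overlap, and passed without ECKO 4, at 2.49 (SE 0.53, adjusted p = 0.0295), but not with it, at 2.20 (SE 0.58, adjusted p = 0.061). Ascl2 did not pass (4.24, SE 1.23, adjusted p = 0.0857).

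Only 6 of 38 Hox genes checked passed the filter, and none was called by edgeR or limma voom, while 3 had an unadjusted p under 0.05 and DESeq2 called 3. The summed level of the 38 genes overlapped between the groups: 50.8, 8.45, 16.6 and 8.02 CPM in Controls and 9.36, 37.9, 51.4 and 161 in ECKO. ECKO 3 and ECKO 4 alone were above Control 1, ECKO 3 by little, and ECKO 4, the highest, also had the highest interstitial markers. The median of the 6 was 2.47, and 1.17 over the 7 genes tested without ECKO 4. Here too a gene silent in Controls passes the filter only through ECKO, so these medians are no support.

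Migrating PGCs contact the gonad through receptors of the cell surface and the matrix around them. Of 50 adhesion receptors and proteoglycans 8 rose (Cd81, Celsr1, Celsr2, Itga3, Itga6, Ptprf, Ptprs and Sdc3) and 1 fell (Itgav), and without ECKO 4 Celsr1, Itga6, Nrcam, Ptprf, Ptprs and Ptpru rose and none fell. The list median of 1.099 came to 0.53 without ECKO 4. Ptprf, a receptor tyrosine phosphatase (LAR), had the smallest adjusted p of all named genes: 52.3, 37.9, 43.6 and 45.3 CPM in Controls and 175, 149, 158 and 176 in ECKO, tight within both groups. For Ptprf the log2 fold change was 1.88 (SE 0.17, adjusted p = 7.94e-05) and 1.85 (SE 0.19, adjusted p = 0.000237) without ECKO 4. Its relative Ptprs, which binds proteoglycans, had 1.20 (SE 0.24, adjusted p = 0.0178) and lost its call without Control 3 or 4 (adjusted p up to 0.0725). Itga6, the laminin-binding integrin alpha chain, measured 9.51, 3.96, 12.3 and 6.26 CPM and 22.2, 56.2, 29.9 and 90.7, with ECKO 4 the highest. For Itga6 the log2 fold change was 2.62 (SE 0.45, adjusted p = 0.00871) and 2.17 (SE 0.44, adjusted p = 0.0242) without ECKO 4. Celsr1, a planar polarity cadherin, measured 23.04, 28.1, 20.2 and 22.7 CPM and 69.4, 65.8, 61.1 and 43.3, with ECKO 4 the lowest of the ECKO libraries. It had 1.35 (SE 0.25, adjusted p = 0.0125) and 1.48 (SE 0.25, adjusted p = 0.00719). Neither gene was lost in any fit with a library left out.

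Of 53 axon guidance ligands and receptors 6 rose (Ephb2, Nrp2, Plxna1, Plxnd1, Robo1 and Unc5b), none fell, and 2 were called without ECKO 4 (Nrp2 and Robo1). The median was 0.50, and 0.39 without ECKO 4. Nrp2, a co-receptor of semaphorins and VEGF, measured 44.3, 17.8, 37.9 and 17.1 CPM and 97.6, 74.8, 105 and 118. For Nrp2 the log2 fold change was 1.76 (SE 0.30, adjusted p = 0.00862) and 1.67 (SE 0.32, adjusted p = 0.0164) without ECKO 4. Robo1, the Slit receptor, measured 15.7, 8.95, 14.9 and 16.7 CPM and 39.2, 48.2, 41.8 and 77.7, again with ECKO 4 the highest. It had 1.88 (SE 0.31, adjusted p = 0.00738) and, without ECKO 4, 1.62 (SE 0.32, adjusted p = 0.0221). The groups did not overlap for either receptor. In the plexin, ephrin receptor and netrin receptor genes the calls depended on single libraries: Plxnd1 (2.04, SE 0.44, adjusted p = 0.0261) was lost without Control 2 or 4 or ECKO 3 or 4 (adjusted p up to 0.0878). Ephb2 (1.84) was lost without Control 2, 3 or 4 or ECKO 2, 3 or 4 (adjusted p up to 0.114). Unc5b (2.22) was lost without Control 2, 3 or 4 or ECKO 1, 2, 3 or 4 (adjusted p up to 0.134), and Plxna1 (1.44), whose groups overlapped, without Control 2, 3 or 4 or ECKO 2, 3 or 4 (adjusted p up to 0.0974).

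Of 45 extracellular matrix genes 2 rose, Serpine2 and Hspg2, and both were also called without ECKO 4, when Fn1 fell as well. The list median of 1.24 came down to 0.60 without ECKO 4, the library richest in stromal markers, among which are collagens of this list. Serpine2, a secreted inhibitor of serine proteases (protease nexin), measured 8.33, 5.44, 2.58 and 2.79 CPM and 39.1, 51.03, 42.6 and 67.6. For Serpine2 the log2 fold change was 3.40 (SE 0.41, adjusted p = 0.000662) and 3.22 (SE 0.43, adjusted p = 0.0017) without ECKO 4. Hspg2, the basement membrane proteoglycan perlecan, measured 63.5, 59.7, 58.4 and 36.9 CPM and 174, 95.2, 112 and 185. For Hspg2 the log2 fold change was 1.37 (SE 0.24, adjusted p = 0.0091), and 1.22 (SE 0.24, adjusted p = 0.0221) without ECKO 4. ECKO 1 was close to ECKO 4 for Hspg2, and for Serpine2 all 4 ECKO libraries were several times above the highest Control.

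Signalling pathways changed in single members. In the Wnt list 4 of 35 rose (Adgra2, Ccnd1, Myc and Sfrp2) and 1 fell (Lef1), all of them called with and without ECKO 4, and the median was 0.73 (0.64 without it). Myc, a Wnt target and driver of growth, measured 1.57, 0.227, 0.517 and 1.84 CPM and 9.904, 10.3, 20.05 and 21.98. For Myc the log2 fold change was 3.88 (SE 0.72, adjusted p = 0.0127) and 3.67 (SE 0.78, adjusted p = 0.0309) without ECKO 4, and kept its call in every fit with a library left out. Lef1, a nuclear effector of the pathway, measured 94.6, 121, 99.1 and 115 CPM and 63.1, 52.8, 61.8 and 63.8. It fell, at -0.83 (SE 0.18, adjusted p = 0.0274), and was lost without Control 2 or 4 or ECKO 2 or 3 (adjusted p up to 0.0997). The 2 genes thus moved in opposite directions, each without overlap. Sfrp2, a secreted modulator of Wnt, had 2.01 (SE 0.47, adjusted p = 0.0357) and was lost without Control 2, 3 or 4 or ECKO 1, 2 or 3 (adjusted p up to 0.117). Adgra2, a co-receptor, had 2.87 (SE 0.61, adjusted p = 0.0254) and was lost without Control 2, 3 or 4 or ECKO 2 (adjusted p up to 0.0855).

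Of 34 genes of FGF and receptor tyrosine kinase signalling, Met and Igf1r rose and Dusp4 fell, and the median of 0.13 became -0.02 without ECKO 4. Met, the receptor of hepatocyte growth factor, measured 2.45, 5.32, 7.17 and 10.3 CPM and 32.3, 60.7, 32.96 and 69.3. For Met the log2 fold change was 2.94 (SE 0.43, adjusted p = 0.00262), and 2.73 (SE 0.44, adjusted p = 0.00577) without ECKO 4, and it was called in all 8 fits with a library left out. Igf1r, the IGF receptor gene, measured 37.2, 10.99, 10.02 and 14.9 CPM and 42.9, 81.2, 68.1 and 146, where ECKO 1 lay just above Control 1 and ECKO 4 was by far the highest. It had 2.21 (SE 0.42, adjusted p = 0.0147) and 1.81 (SE 0.40, adjusted p = 0.0345) without ECKO 4, and was lost without Control 2 or 4 (adjusted p up to 0.0625). Dusp4, a phosphatase that dampens ERK, had -1.12 (SE 0.26, adjusted p = 0.0332) and was lost without Control 2, 3 or 4 or ECKO 1, 2 or 4 (adjusted p up to 0.129). Among 26 Notch and Hedgehog genes the ligand gene Jag1 rose (2.15, SE 0.51, adjusted p = 0.0364) and the Notch target Hey1 fell (-0.84, SE 0.19, adjusted p = 0.0315). The median of this list was 0.67, and 0.48 without ECKO 4. Jag1 was lost without Control 1, 2 or 4 or ECKO 1 or 3 (adjusted p up to 0.141). Hey1 was lost without Control 2 or 4 or ECKO 1, 3 or 4 (adjusted p up to 0.127). Of 20 BMP and 23 Nodal, Activin and TGF beta genes none was called by edgeR. In these lists 5 and 6 had an unadjusted p under 0.05, as did 2007 of all 12497 genes tested. DESeq2 called 3 and 4 and limma voom 1 in each. Their medians were 0.22 and 0.35, and -0.01 and 0.24 without ECKO 4.

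Genes of the pluripotency network, which PGCs share with embryonic stem cells, fell where edgeR called them. Of 28 tested 4 fell (Dppa4, Klf5, Tet1 and Tfcp2l1) and none rose, and 1 fell without ECKO 4 (Dppa4), while DESeq2 and limma voom called 6 each. The median was -0.32, and -0.22 without ECKO 4. Tet1, which oxidises methylcytosine, measured 1172, 996, 1442 and 1143 CPM and 719, 841, 849.8 and 548, with no overlap and with ECKO 4 the lowest. For Tet1 the log2 fold change was -0.68 (SE 0.16, adjusted p = 0.0318) and -0.56 (SE 0.15, adjusted p = 0.0749) without ECKO 4, and its call was lost without Control 2, 3 or 4 or ECKO 1 or 4 (adjusted p up to 0.0876). Dppa4, a chromatin protein of pluripotent and germ cells, measured 103, 148, 117 and 117 CPM and 74.9, 64.8, 59.9 and 51.2. It had -0.95 (SE 0.19, adjusted p = 0.0183), and -0.86 (SE 0.20, adjusted p = 0.0426) without ECKO 4, and was lost without Control 2 or 4 (adjusted p up to 0.0855). Klf5 (-1.13, SE 0.26, adjusted p = 0.0318) was lost without Control 2, 3 or 4 or ECKO 1, 2 or 4 (adjusted p up to 0.128), and Tfcp2l1 (-0.66, SE 0.16, adjusted p = 0.0431) in every fit with a library left out (adjusted p up to 0.142).

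The central factors did not pass. Nanog measured 150.2, 184, 275 and 223 CPM and 150.0, 120.4, 163 and 64.6, with ECKO 3 among the Controls and ECKO 4 the lowest (-0.74, SE 0.25, adjusted p = 0.138). Pou5f1 was at 0.79 (SE 0.26, adjusted p = 0.14) and Sox2 at -0.34 (SE 0.23, adjusted p = 0.5), both with overlap. Dppa3 (Stella) measured 934, 999, 895 and 1077 CPM and 801, 722, 813 and 557, wholly apart, and yet missed the threshold at -0.43 (SE 0.14, adjusted p = 0.123). Prdm1, whose sequences drive the Cre, had 0.26 (SE 0.18, adjusted p = 0.534). None of the 14 germ cell markers, nor of 14 genes of early PGC specification, was called by edgeR, with 3 of each at an unadjusted p under 0.05, while DESeq2 called 2 and 3 and limma voom 1 and 2. Dazl and Ddx4, RNA-binding genes that rise as PGCs commit to the germline, were not called. Dazl measured 24.4, 19.9, 48.9 and 53.9 CPM in Controls and 9.18, 81.1, 9.88 and 60.4 in ECKO, and Ddx4 111, 119.8, 120.1 and 77.6 and 82.6, 159.5, 86.3 and 105. For Dazl, ECKO 1 and 3 were below all Controls and ECKO 2 and 4 above them. The log2 fold changes were 0.12 and 0.02, and both changed sign under other settings. Elavl2, another RNA-binding gene of germ cells and neurons, fell (-0.69, SE 0.17, adjusted p = 0.0476) and was lost without Control 2, 3 or 4 or ECKO 1, 2, 3 or 4 (adjusted p up to 0.142).

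The p53 pathway answers DNA damage and other stress with cell cycle arrest or apoptosis. Of 48 p53 targets and apoptosis genes 5 rose (Ccng1, Cdkn1a, Plk2, Pmaip1 and Psrc1), 3 of them also without ECKO 4, and the list median was 0.07 in both. Pmaip1 (Noxa), a BH3-only activator of apoptosis, measured 1.96, 1.47, 0.452 and 1.43 CPM and 14.7, 42.9, 22.1 and 22.4, with ECKO 2 the highest. For Pmaip1 the log2 fold change was 4.27 (SE 0.57, adjusted p = 0.00142) and 4.33 (SE 0.59, adjusted p = 0.00183) without ECKO 4. Cdkn1a (p21), which blocks cyclin-dependent kinases, measured 58.4, 74.2, 50.4 and 73.7 CPM and 176, 129.7, 136 and 137. It had 1.17 (SE 0.19, adjusted p = 0.00584), and 1.20 (SE 0.20, adjusted p = 0.00719) without ECKO 4. Ccng1, an early p53 target, measured 30.98, 43.4, 45.6 and 48.02 CPM and 114, 92.4, 71.00 and 109.9. It had 1.21 (SE 0.22, adjusted p = 0.0127) and, without ECKO 4, 1.14 (SE 0.24, adjusted p = 0.0295). These 3 genes were called in every fit with a library left out and had no overlap. Plk2 (2.27, SE 0.49, adjusted p = 0.0266) was lost without Control 2, 3 or 4 or ECKO 4 (adjusted p up to 0.0929), and Psrc1 (2.88, SE 0.60, adjusted p = 0.0237) without Control 2 or 4 or ECKO 4 (adjusted p up to 0.0855).

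Cdkn1c (p57), an imprinted inhibitor of the same kinases, measured 9.61, 11.7, 10.99 and 11.6 CPM and 26.4, 37.1, 37.6 and 205. The first 3 ECKO libraries were above all Controls and ECKO 4 was far above them. The log2 fold change of 2.80 (SE 0.53, adjusted p = 0.0132) became 1.62 (SE 0.34, adjusted p = 0.0295) without ECKO 4, with the call lost without Control 2 or 4 (adjusted p up to 0.0521). Cdkn1b was at 1.35 (SE 0.42, adjusted p = 0.112) without overlap. Of 27 cyclins and kinases the D-type cyclin genes Ccnd1 (2.43, SE 0.53, adjusted p = 0.0274) and Ccnd2 (1.47, SE 0.37, adjusted p = 0.0465) rose. Ccnd1 was lost without Control 2 or 4 or ECKO 1 or 2 (adjusted p up to 0.0942), and Ccnd2 without Control 2, 3 or 4 or ECKO 1, 2, 3 or 4 (adjusted p up to 0.142). Ccnd1 measured 16.96, 8.04, 18.7 and 2.65 CPM against 90.7, 67.1, 16.9 and 76.1, and overlapped, since ECKO 3 was below Control 1 and Control 3. The median of this list was -0.17, and -0.15 without ECKO 4. Of 44 replication and mitosis genes, markers of proliferation, edgeR called Mcm10 alone, while DESeq2 called 4 and limma voom 1. Mcm10 fell, with -0.74 (SE 0.18, adjusted p = 0.0426), and was lost without Control 1, 2, 3 or 4 or ECKO 1, 2 or 3 (adjusted p up to 0.142). The list median was -0.12, and -0.09 without ECKO 4.

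Immediate early genes are switched on within minutes by growth signals or by tissue dissociation. Of 33 tested Egr1, Fos and Myc rose, with and without ECKO 4, and each in all 8 fits with a library left out. Egr1 measured 51.3, 70.6, 33.5 and 26.7 CPM and 249, 207, 152 and 325. For Egr1 the log2 fold change was 2.36 (SE 0.29, adjusted p = 0.000662) and 2.17 (SE 0.28, adjusted p = 0.00117) without ECKO 4. Fos measured 5.29, 4.76, 1.81 and 4.42 CPM and 49.4, 17.2, 27.4 and 41.2. It had 3.06 (SE 0.46, adjusted p = 0.00353), and 2.95 (SE 0.49, adjusted p = 0.0066) without ECKO 4. All libraries of both groups were digested by the same protocol, and a part of handling in these values was not tested. The list median was 0.43, and 0.23 without ECKO 4.

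Of 18 metal-handling genes, a list drawn up after its values had been seen, Mt1, Mt2 and Steap2 rose and Slc40a1 fell, and without ECKO 4 the zinc transporter gene Slc39a14 rose too while Slc40a1 was not called. Mt2 and Mt1, the metallothioneins that bind zinc and copper, were apart between the groups: Mt2 measured 202, 178, 113 and 130.3 CPM and 579, 457, 456 and 471, and Mt1 30.2, 30.02, 19.6 and 28.1 and 128, 100.3, 50.5 and 73.2. For Mt2 the log2 fold change was 1.66 (SE 0.18, adjusted p = 0.000393), and 1.68 (SE 0.19, adjusted p = 0.000471) without ECKO 4. For Mt1 it was 1.71 (SE 0.28, adjusted p = 0.00735), and 1.79 (SE 0.29, adjusted p = 0.00609). Steap2, a metalloreductase, went from under 1 CPM in each Control to 4.27, 9.53, 14.7 and 22.1 CPM in ECKO. For Steap2 the log2 fold change was 4.84 (SE 0.81, adjusted p = 0.00761), and 4.43 (SE 0.91, adjusted p = 0.0251) without ECKO 4. Slc40a1, the iron exporter ferroportin, fell (-1.33, SE 0.30, adjusted p = 0.0318), and was lost without Control 2, 3 or 4 or ECKO 1, 2 or 4 (adjusted p up to 0.108). None of the 4 overlapped between the groups. The list median was 0.06, and 0.07 without ECKO 4.

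Of 27 glycolysis and pyruvate genes Ldha rose and Pfkp and Pdk1 fell, with or without ECKO 4, and the median was 0.09, and 0.02 without it. Ldha, which turns pyruvate into lactate, measured 107, 84.6, 111 and 109.9 CPM and 233, 161, 231 and 235. It had 1.06 (SE 0.17, adjusted p = 0.00531), and 1.02 (SE 0.18, adjusted p = 0.00983) without ECKO 4. Pfkp, a phosphofructokinase, measured 192, 193, 217 and 227 CPM and 109, 97.2, 91.4 and 69.2. For Pfkp the log2 fold change was -1.17 (SE 0.17, adjusted p = 0.00238), and -1.06 (SE 0.16, adjusted p = 0.00417) without ECKO 4. Pdk1, which inhibits pyruvate dehydrogenase, had -0.96 (SE 0.20, adjusted p = 0.0225) and was lost without Control 2 or 4 or ECKO 2 or 3 (adjusted p up to 0.0842). Tdh, the threonine dehydrogenase that mouse stem cells rely on, measured 195, 285, 251 and 256 CPM and 132, 114, 138 and 94.3. For Tdh the log2 fold change was -1.04 (SE 0.17, adjusted p = 0.00607), and -0.94 (SE 0.17, adjusted p = 0.0125) without ECKO 4. Of 35 sterol and lipid genes the transporter gene Abca1 (2.52, SE 0.57, adjusted p = 0.0318) and Acly (0.90, SE 0.22, adjusted p = 0.0427) rose and the sterol demethylase gene Cyp51 fell (-0.86, SE 0.21, adjusted p = 0.0426). The median of this list was -0.38, and -0.30 without ECKO 4, when Abca1 was the one call. Abca1 was lost without Control 2 or 3 or ECKO 2 (adjusted p up to 0.13). Acly was lost without Control 2, 3 or 4 or ECKO 2, 3 or 4 (adjusted p up to 0.141), and Cyp51 without Control 2, 3 or 4 or ECKO 1, 2, 3 or 4 (adjusted p up to 0.151).

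Of 31 genes of antigen processing and the interferon response, also a list drawn up after its values had been seen, 4 rose and 3 fell, with a median of 0.17. Without ECKO 4 the median was 0.28, H2-K1, Ifnar2 and Psmb10 rose, and Ddx58 and Pml fell. Psmb9 and Psmb10, subunits of the immunoproteasome, Tap1, the peptide transporter, and Ifnar2, an interferon receptor chain, rose. Psmb10 measured 7.35, 5.78, 6.59 and 7.82 CPM and 58.3, 24.1, 32.3 and 10.8, with ECKO 4 nearest to the Controls. The log2 fold change of 2.19 (SE 0.46, adjusted p = 0.0225) became 2.47 (SE 0.39, adjusted p = 0.00422) without it. The call was lost without Control 2, 3 or 4 or ECKO 1 (adjusted p up to 0.0839). Psmb9 (minus strand) and Tap1 (plus strand) lie head to head on chromosome 17 and run apart from there. Their RefSeq promoter windows overlap (34187281 to 34187580 and 34187306 to 34187605, GRCm38.p6), and whether they share reads was not tested. Psmb9 had 4.53 (SE 1.13, adjusted p = 0.0466) and was lost without Control 2, 3 or 4 or ECKO 1, 2, 3 or 4 (adjusted p up to 0.151). Tap1 had 3.87 (SE 0.95, adjusted p = 0.0446) and was lost without Control 2, 3 or 4 or ECKO 1, 2, 3 or 4 (adjusted p up to 0.134). Ifnar2 (3.68, SE 0.91, adjusted p = 0.0446) was lost without Control 1, 2, 3 or 4 or ECKO 1, 2 or 3 (adjusted p up to 0.141). A sensor of the same pathway fell: Ddx58 (RIG-I), which detects viral RNA, measured 70.97, 78.8, 67.7 and 80.1 CPM and 29.1, 33.4, 33.7 and 27.8. It had -1.26 (SE 0.21, adjusted p = 0.00761), and -1.21 (SE 0.23, adjusted p = 0.0164) without ECKO 4. Pml (-0.79, SE 0.16, adjusted p = 0.021) and Trim25 (-0.63, SE 0.15, adjusted p = 0.0383), which ubiquitinates RIG-I, fell too. Pml was lost without Control 2, 3 or 4 or ECKO 2 (adjusted p up to 0.077), and Trim25 without Control 2, 3 or 4 or ECKO 1, 2, 3 or 4 (adjusted p up to 0.156).

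Of 61 imprinted genes 4 rose (Cd81, Cdkn1c, Plagl1 and Sfmbt2) and 1 fell (Atp10a), and 2 rose without ECKO 4 (Cdkn1c and Sfmbt2). The median was 0.37, and 0.11 without ECKO 4. The summed level of 81 imprinted genes was 3319 to 3923 CPM in Controls, 3605 to 4107 in the first 3 ECKO libraries and 8788 in ECKO 4. Sfmbt2, a Polycomb-group gene of the placenta, measured 179, 104, 123 and 184 CPM and 317, 478, 339 and 334. It had 1.31 (SE 0.20, adjusted p = 0.00353), and 1.36 (SE 0.21, adjusted p = 0.00375) without ECKO 4, and was called in every fit with a library left out. Plagl1 (Zac1), a growth regulator, measured 11.3, 3.51, 7.75 and 6.67 CPM and 22.9, 26.8, 13.4 and 77.5, with ECKO 4 several times the others. The log2 fold change of 2.26 (SE 0.51, adjusted p = 0.0318) became 1.53 (SE 0.48, adjusted p = 0.14) without it. Plagl1 was lost without Control 2, 3 or 4 or ECKO 2 or 4 (adjusted p up to 0.14). Cd81 (1.53, SE 0.33, adjusted p = 0.0274), at 1.02 without ECKO 4, was lost without Control 2, 3 or 4 or ECKO 2 or 4 (adjusted p up to 0.0927). Atp10a (-0.72, SE 0.17, adjusted p = 0.0414) was lost without Control 2, 3 or 4 or ECKO 1, 2, 3 or 4 (adjusted p up to 0.126).

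Of 15 genes of DNA methylation and demethylation 2 rose and 2 fell, and without ECKO 4 Uhrf1 was the one call. The median of 0.33 became -0.12 without ECKO 4. Uhrf1, which recruits the maintenance methyltransferase and is low in PGCs, measured 23.04, 23.3, 23.6 and 10.6 CPM and 41.7, 64.9, 57.8 and 45.8. It had 1.38 (SE 0.30, adjusted p = 0.0261), and 1.45 (SE 0.32, adjusted p = 0.0322) without ECKO 4, and was lost without Control 2 or 4 or ECKO 2 or 3 (adjusted p up to 0.0823). Dnmt3b, a de novo methyltransferase, measured 8.04, 4.53, 1.74 and 3.26 CPM and 5.31, 27.6, 18.8 and 47.1, where ECKO 1 lay among the Controls. It had 2.50 (SE 0.62, adjusted p = 0.0452), and 1.98 (SE 0.64, adjusted p = 0.151) without ECKO 4, and was lost without Control 2, 3 or 4 or ECKO 2, 3 or 4 (adjusted p up to 0.151). Trim28, a corepressor of imprints and transposons, fell (-0.54, SE 0.13, adjusted p = 0.0446) and was lost without Control 2, 3 or 4 or ECKO 2, 3 or 4 (adjusted p up to 0.159). Tet1, described above, was the other that fell. Among 19 genes of H3K9 methylation and heterochromatin Trim28 and the chromatin remodeller gene Atrx fell (-0.53, SE 0.13, adjusted p = 0.0499 for Atrx), and Atrx was lost without Control 1, 2, 3 or 4 or ECKO 1, 3 or 4 (adjusted p up to 0.139). Neither was called without ECKO 4, and the median was -0.19, and -0.28 without it. In a list of 23 histone deacetylases and demethylases made after the values had been seen, Hdac5 (1.64, SE 0.40, adjusted p = 0.0427), Hdac6 (2.26, SE 0.56, adjusted p = 0.0446) and Kdm1b (1.59, SE 0.40, adjusted p = 0.0482), which remove acetyl or methyl groups, rose, and the median was 0.19, and 0.10 without ECKO 4. Hdac5 was lost without Control 1, 3 or 4 or ECKO 1 or 2 (adjusted p up to 0.128). Hdac6 was lost without Control 2, 3 or 4 or ECKO 1, 2 or 4 (adjusted p up to 0.121), and Kdm1b without Control 2, 3 or 4 or ECKO 2 or 4 (adjusted p up to 0.136). Rhox9, an X-linked homeobox gene of germ cells, fell (-0.60, SE 0.14, adjusted p = 0.0374) and was lost without Control 2 or 4 or ECKO 2, 3 or 4 (adjusted p up to 0.156), as edgeR's sole call among 13 Rhox genes, of which DESeq2 called 2 and limma voom 1. The median of the 13 was -0.55, and -0.37 without ECKO 4. None of 6 Y-linked genes was called by edgeR, DESeq2 or limma voom, and none had an unadjusted p under 0.05.

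Genes outside these groups were among the most stable calls, and others among the least stable. Ndrg2, a differentiation gene, measured 1.67, 0.453, 0.646 and 0.272 CPM and 26.7, 14.8, 16.04 and 47.04. It had 5.11 (SE 0.66, adjusted p = 0.00121), and 4.66 (SE 0.70, adjusted p = 0.00328) without ECKO 4, and was called in every fit with a library left out. Uchl1, a ubiquitin hydrolase of neurons and spermatogonia, measured 11.7, 23.3, 9.63 and 14.7 CPM and 78.1, 54.7, 71.7 and 52.6. It had 2.12 (SE 0.30, adjusted p = 0.00242) and, without ECKO 4, 2.21 (SE 0.32, adjusted p = 0.00263). Bend4 measured 90.8, 38.6, 33.5 and 59.8 CPM and 176, 249, 204 and 249 (1.98, SE 0.26, adjusted p = 0.00142). Dab2ip, a Ras GTPase-activating protein, measured 10.4, 21.97, 12.54 and 18.4 and 49.4, 71.6, 76.4 and 77.6 (2.12, SE 0.29, adjusted p = 0.00158). These 4 were named because they had no overlap between the groups and were called in every fit with a library left out. Neither trait is therefore support. Vopp1 (3.35, SE 0.52, adjusted p = 0.00488) was likewise called in every such fit. Tac2, a neurokinin gene, measured 0.686, 0, 0.129 and 0.06802 CPM and 1.45, 0.993, 1.96 and 55.2. Its log2 fold change of 6.05 (SE 1.41, adjusted p = 0.0351) was 2.70 (SE 1.36, adjusted p = 0.392) without ECKO 4, and it was lost without Control 2, 3 or 4 or ECKO 4 (adjusted p up to 0.392). Fgd5, an endothelial exchange factor, was likewise highest in ECKO 4 (8.54, 4.67, 4.21 and 41.3 CPM), the library with the most endothelial markers. Its 5.07 (SE 1.13, adjusted p = 0.0293) became 3.71 (SE 1.21, adjusted p = 0.156) without ECKO 4, with the call lost without Control 2, 3 or 4 or ECKO 4 (adjusted p up to 0.156). Fam78b (4.69) was lost without Control 2, 3 or 4 or ECKO 1, 2 or 3 (adjusted p up to 0.0981). Ppap2c (4.61) was lost without Control 2, 3 or 4 or ECKO 1, 3 or 4 (adjusted p up to 0.106), and the lipoxygenase gene Alox15 (4.59) without Control 2, 3 or 4 or ECKO 2 (adjusted p up to 0.0725). Ppp2r2c (4.56), a neuronal phosphatase subunit, was lost without Control 2, 3 or 4 or ECKO 1 (adjusted p up to 0.0752). The receptor gene F2rl1 (4.46) was lost without Control 4 (adjusted p = 0.065), and Tbxa2r (4.33) without Control 2, 3 or 4 or ECKO 3 or 4 (adjusted p up to 0.192).

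Among the genes that fell, Gnai1, an inhibitory G protein alpha subunit, had the smallest adjusted p, at 120.5, 123, 131 and 126 CPM in Controls and 48.6, 56.1, 44.9 and 45.5 in ECKO. For Gnai1 the log2 fold change was -1.36 (SE 0.18, adjusted p = 0.00121) and -1.32 (SE 0.19, adjusted p = 0.00273) without ECKO 4. Ptpn9, a tyrosine phosphatase, measured 21.1, 40.9, 54.5 and 48.1 CPM and 6.93, 10.2, 8.997 and 5.203. It had -2.39 (SE 0.37, adjusted p = 0.00476), and -2.24 (SE 0.38, adjusted p = 0.00719) without ECKO 4. BC048679 measured 92.2, 118, 97.8 and 135 CPM and 29.95, 46.3, 26.4 and 37.6 (-1.66, SE 0.23, adjusted p = 0.00158). AU018091 measured 56.1, 33.98, 74.2 and 83.7 and 17.4, 16.7, 16.2 and 5.63, with ECKO 4 the lowest (-2.15, SE 0.36, adjusted p = 0.00796). The chromatin protein gene Hmgn5 measured 335, 318, 252 and 315 CPM and 191, 154, 129.8 and 93.96 (-1.10, SE 0.19, adjusted p = 0.00871). The ectoenzyme gene Enpp3 measured 160.3, 128, 156 and 179 and 73.1, 62.4, 92.02 and 67.5 (-1.08, SE 0.18, adjusted p = 0.00735), and the calcium-binding protein gene Gca 142, 136, 184 and 151 and 67.2, 59.7, 82.8 and 36.7 (-1.31, SE 0.22, adjusted p = 0.00761). All 7 were named because they lay wholly below the Controls and were called in every fit with a library left out, the fit without ECKO 4 included. Neither trait is therefore support. The falls of Muc19 (-2.75, SE 0.55, adjusted p = 0.0173), Abca4 (-2.69, SE 0.65, adjusted p = 0.0406), Serpinb9b (-1.89, SE 0.46, adjusted p = 0.0406), Rab11fip1 (-1.52, SE 0.37, adjusted p = 0.0438) and AI414108 (-1.46, SE 0.35, adjusted p = 0.0414) depended on single libraries. Muc19 was lost without Control 2 or 4 (adjusted p up to 0.0828). Abca4 was lost without Control 2, 3 or 4 or ECKO 1, 2, 3 or 4 (adjusted p up to 0.185), and Serpinb9b without Control 2, 3 or 4 or ECKO 1, 2, 3 or 4 (adjusted p up to 0.162). Rab11fip1 was lost without Control 2 or 3 or ECKO 1, 2, 3 or 4 (adjusted p up to 0.118), and AI414108 without Control 2, 3 or 4 or ECKO 1, 2, 3 or 4 (adjusted p up to 0.159). Ptpre, a receptor phosphatase gene, had -1.39 (SE 0.27, adjusted p = 0.0151) and was lost without Control 2 (adjusted p = 0.0595). Aard, on the supporting cell list, measured 64.1, 71.9, 68.05 and 60.1 CPM and 23.7, 37.2, 23.9 and 16.4 (-1.38, SE 0.26, adjusted p = 0.0146), and was lost without Control 2 (adjusted p = 0.0561). The 20 markers of that list other than Aard and Cbx2 summed to 14.2 to 23.99 CPM in Controls and 32.7 to 105 in ECKO. Pecam1, on the endothelial list but also made by PGCs, fell (-0.79, SE 0.19, adjusted p = 0.0374) and was lost without Control 2, 3 or 4 or ECKO 2, 3 or 4 (adjusted p up to 0.128).

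The same genes were then read in E11.5 XX libraries (3 Control and 4 ECKO) and E13.5 XY libraries (4 Control and 3 ECKO), which share no sample with those above and have the same labelled genotypes and cross. Of the 189 genes that rose in E11.5 XY, 170 were tested in XX and 167 of them had a positive log2 fold change there, with a median of 1.66. Of the 77 that fell 75 were tested and 74 were negative, with a median of -0.73. Over all genes tested in XX 51.8% were positive and the median was 0.03. Of the 189 genes, 79 averaged under 5 CPM in E11.5 XY Controls. A gene silent in XX Controls is tested there only if XX ECKO libraries express it. For such genes a positive sign is set by the filter and is no support. In XX itself 15 genes were called higher (0.136%) and 4 lower (0.0362%). Among those 15 were 11 of the 170, namely Hand1, Tdrd1, the surface and matrix genes Ptprf, Ptprs, Sdc3, Adgra2 and Serpine2, the transporter gene Abca1, Ccnd1, Amotl1 and Bend4, and among those 4 were 3 of the 75, Gnai1, Hmgn5 and Pfkp.

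In a joint fit of both sexes edgeR called no gene for the difference (0 of 14185, 0%), with 747 at an unadjusted p under 0.05, and DESeq2 called 1, Cyp51. For Cyp51 the log2 fold change was -0.86 in XY and 0.74 in XX, a difference of -1.62 (SE 0.33, adjusted p = 0.587 in edgeR). Fads1, a fatty acid desaturase, had -0.52 in XY and 1.41 in XX, a difference of -1.95 (SE 0.41, adjusted p = 0.587). Hand1 stood at 4.65 in XY and 4.53 in XX, Stra8 at 4.82 and 4.14, Ptprf at 1.88 and 1.82, and Gnai1 at -1.36 and -1.61. Fos was at 3.06 in XY and 0.31 in XX, and Mt2 at 1.66 and 0.86. None of these differences passed, a result that does not show that the sexes respond alike.

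In E13.5 XY, 162 of the 189 genes were tested and 141 had a positive log2 fold change, with a median of 1.30, and of the 77 that fell 76 were tested and 66 were negative, with a median of -1.27. Over all genes tested at E13.5 51.8% were positive and the median was 0.05. The limit given for XX, that a gene silent in Controls is tested only through ECKO, holds here too. There 369 genes were called higher (2.99%) and 235 lower (1.90%). Of the 162, 27 (16.7%) were called higher at E13.5 too, 7.32% of the 369, and 15 of the 76 (19.7%) were called lower, 6.38% of the 235. None of the 266 was called in the opposite direction. The 27 were Abca1, Abca3, Acly, Ccnd1, Ccnd2, Cdkn1c, Clstn1, Dgkk, Dnmt3b, Elf4, Epb4.1, Fgd5, Hdac6, Hspg2, Igf1r, Ldha, Ndrg2, Nxf3, Plec, Psmb9, Ptpn13, Ptprf, Serpine2, Src, Tdrd1, Trerf1 and Uchl1. The 15 were Atrx, AU018091, Ddx58, Eed, Elmo1, Ero1l, Esrp1, Gnai1, Hmgn5, Pdk1, Plcd1, Ptpn9, Ptpre, Rab27a and Raph1. Tdrd1 had a log2 fold change of 3.23 at E13.5, Ccnd2 3.93, Uchl1 4.08 and Ldha 2.94, against 2.26, 1.47, 2.12 and 1.06 at E11.5.

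**Figure D5:**
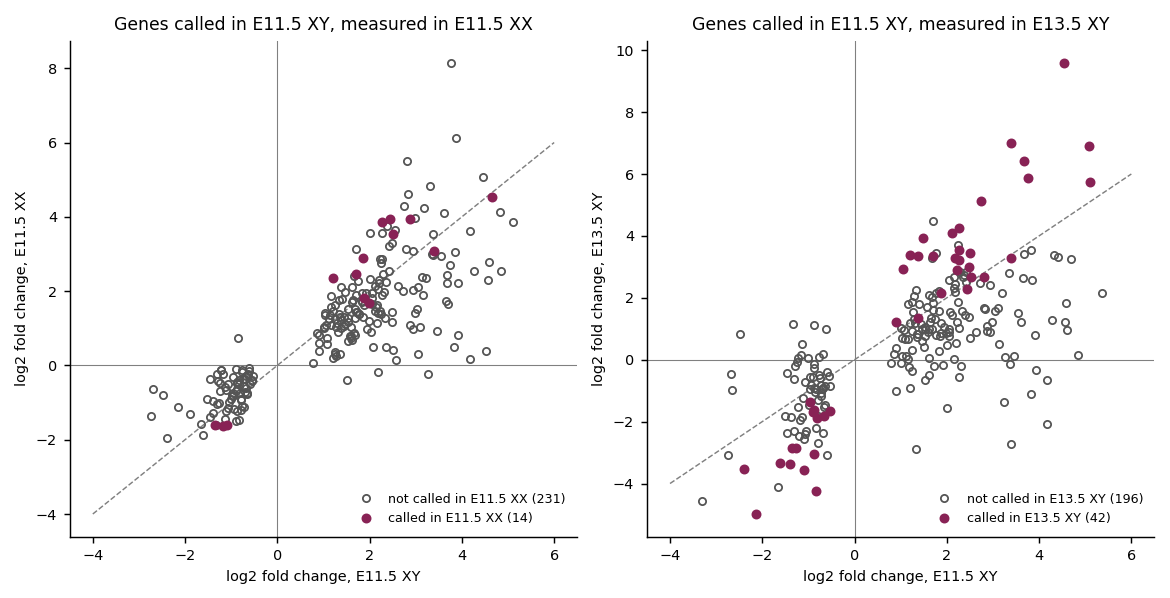
Points are genes called in E11.5 XY, with the log2 fold change there on the x axis and that in E11.5 XX (left) or E13.5 XY (right) on the y axis; filled points were called in the other libraries too, and the dashed line marks equal values. Most points lie in the quadrants of equal sign, 167 of 170 and 74 of 75 on the left and 141 of 162 and 66 of 76 on the right. A gene silent in the Controls of the other libraries is shown only if ECKO expresses it there.

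In a joint fit of both stages the effect differed for 173 of 14447 genes (1.20%), 102 with the more positive change at E11.5 and 71 with the more positive change at E13.5. Of the 266 genes called at E11.5, 9 were among them: 9530091C08Rik, Bmi1, Ccng1, Glis2, Hhex, Itm2b, Plcd1, Pmaip1 and Rab27a. Pmaip1 rose at E11.5 and was at 1.28 at E13.5, a difference of 2.98 (SE 0.73, adjusted p = 0.0471). Ccng1 was at 1.21 and -0.93, a difference of 2.13 (SE 0.41, adjusted p = 0.0185), and Bmi1 at 1.62 and -0.49, a difference of 2.09 (SE 0.51, adjusted p = 0.0459). Cdkn1a had 1.17 and -0.22, a difference of 1.35 (SE 0.56, adjusted p = 0.211) that did not pass. The 5 genes of smallest adjusted p with a more positive change at E11.5, Srgap3, Heg1, Aif1l, Dsg2 and Lrrn4, all fell at E13.5 (log2 fold change -2.98, -2.41, -7.15, -6.59 and -3.45) and were not called at E11.5. Those with a more positive change at E13.5, Gm5617, Rpl22l1, Tmsb10, Tex101 and Atp6v1b2, rose there (6.36, 1.82, 1.69, 7.06 and 2.05) and were likewise not called at E11.5. The count rested on single libraries of both stages, from 30 without ECKO 3 of E11.5 XY to 1267 without ECKO 1 of E13.5 XY.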

How the data were processed

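The deposited table holds the authors' whole-number read counts per gene symbol, with no normalization, for 8 E11.5 XY libraries, and like tables hold those of E11.5 XX and E13.5 XY. The submitters' processing notes name HISAT2, edgeR and mm9, and give no counter, annotation or strand setting. Reads of overlapping or near-identical genes may therefore be shared. Column names were matched to sample labels, and groups were taken from the labels. Genes passing filterByExpr were scaled by TMM and tested with the quasi-likelihood test of edgeR 4.0.16 in R 4.3.3 with Benjamini-Hochberg adjustment at 0.05, a script tested on simulated data. Alternatives were DESeq2 1.42.0, limma 3.58.1 voom with quality weights, other scalings and filters, a replicate block, a fit of all 22 bulk libraries, and each library left out in turn. After the values were seen, a fit without Rn45s was added. The members and gene lists were chosen with earlier results of these data known, and 3 lists after these values were seen.

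The genes named were Eed, 11 genes of germ cells and their regulation, the 14 largest changes in each direction without overlap and with at least 5 CPM in the higher group, up to 15 in each direction of the same kind called with every library left out, up to 6 called genes of each list and 5 in each direction of each interaction. Absence of overlap in genes named by size of change or by calls with every library left out was thus a condition of choice, as were the calls of the latter. Others are named where a list needs them, and 1 gene is not reported here. Promoter windows are RefSeq's for GRCm38.p6, a build other than that of the counts, matched by symbol.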

Additional observations from a re-analysis of the deposited data

Results flagged for a closer look

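In 17 of 232 groups of 4 libraries checked, 1 library lay far from the other libraries of its group by Dixon's criterion, which chance meets in about 1 of 20. In ECKO 4 these were Tac2 at 55.2 CPM, far above the other ECKO libraries, and AU018091 at 5.63, Tbx4 at 41.0 and Ifnar2 at 1.91, below them. ECKO 2 stood apart for Sfmbt2 at 478 CPM, Lef1 at 52.8 and Ldha at 161, and ECKO 1 for Mt2 at 579 and Rhox9 at 454. Among Controls, Control 3 was apart for Crabp1 at 18.9 CPM, Six4 at 224 and Mt1 at 19.6, and Control 4 for Uhrf1 at 10.6 and Hspg2 at 36.9. Control 2 was apart for Mcm10 at 121 CPM and Ldha at 84.6, and Control 1 for Adgra2 at 13.8. No cause was tested.

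The effect of Eed deletion differed between E11.5 and E13.5 XY germ cells, by an interaction term in edgeR, for 13 of the genes named. Pmaip1, Ccng1 and Bmi1, which rose at E11.5, had log2 fold changes more positive there by 2.98, 2.13 and 2.09 (adjusted p = 0.0471, 0.0185 and 0.0459). Srgap3, Heg1, Aif1l, Dsg2 and Lrrn4, which fell at E13.5, differed by 3.35, 2.79, 6.39, 7.11 and 3.59. Gm5617, Rpl22l1, Tmsb10, Tex101 and Atp6v1b2, which rose at E13.5, differed by -6.10, -1.97, -1.96, -6.49 and -2.43.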

How the results depend on the processing

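The 266 calls (189 higher, 77 lower) became 1031 (759 and 272) with DESeq2, 457 (322 and 135) with no filter on low counts, 151 (116 and 35) with the replicate number as a block and 23 (22 and 1) when all 22 bulk libraries shared a fit. With 1 library left out they ran from 64 to 333 in all, from 46 to 261 higher and from 16 to 72 lower. The 162 calls without ECKO 4 became 701 (492 and 209) with DESeq2 and 66 (52 and 14) with the block, and ran from 39 to 234, 29 to 192 higher and 10 to 42 lower, with another library left out. The share of higher calls was 205 of 258 with upper-quartile scaling. The difference between XY and XX had no call, 1 with DESeq2 (Cyp51, -1.58), and 0 to 1 with a library left out. The 173 calls of the difference between stages became 911 (427 more positive at E11.5 and 484 more negative) with DESeq2, 306 (156 and 150) with no filter, 132 (65 and 67) with DESeq2's size factors and 17 (10 and 7) with the block. They ran from 30 to 1267, from 16 to 785 and from 13 to 482, with a library left out. Samples of the same number did not deviate together (correlations from -0.146 to -0.0133, against -0.0743 to 0.149 for other pairs). With 4 libraries in each group this check cannot exclude a shared litter or day, on which the labels are silent.

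Of 108 named genes that were called, 71 lost the call with at least 1 library left out, 93 in the fit of all 22 libraries, 37 under the block and 26 under at least 1 of the other settings, and 10 were called under every alternative. The cause was not tested. Signs reversed only in uncalled genes: Dazl (limma voom -0.022, block -0.41, and from -0.48 to 0.46 with a library left out), Ddx4 (no filter -0.014, block -0.015, 22 libraries -0.00487, and from -0.23 to 0.13 with a library left out) and Sycp3 (from -0.052 to 0.98 with a library left out, below 0 without ECKO 2). Nanog passed with no filter (-0.76), and Dppa3 with DESeq2 (-0.43) and limma voom (-0.45). Scaling moved the median of all genes to at most 0.055 on the log2 scale, and of all lists only the median of the RNA-binding genes changed sign, from -0.05 to 0.01 with upper-quartile scaling. Depth limits the genes that rose from a few counts per Control library.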
